A study of Drosophila melanogaster with 2 samples.

Results

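Chaperone genes of Drosophila melanogaster were examined for enrichment of the gooseberry (gsb) fusion protein at their promoters. The genes were 10 of 13945 protein-coding genes on the main chromosome arms, selected on the peaks near their starts that an earlier reading of these lists had shown, and named in a fixed list. They were 5 constitutive genes (Hsp83, Hsc70-3, Hsc70-4, Hsc70-5 and Hsp60A) and 5 heat-induced genes (Hsp22, Hsp23, Hsp26, Hsp27 and Hsp68). A gene was counted as having a promoter peak when the summit of a peak lay within 1 kb of any of its annotated transcription start sites, called starts here. In the combined peak list of both replicates, 6 of the 10 genes had such a peak, against 13.8% of all protein-coding genes. These were Hsp83, Hsc70-4 and Hsc70-5 among the constitutive genes, and Hsp22, Hsp26 and Hsp27 among the heat-induced genes. Because the peaks themselves chose the list, the counts and signals of its members are a description and were not tested.

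Chaperones bind unfolded proteins and keep them from aggregating. The constitutive genes serve protein folding in unstressed cells, in the cytosol, the endoplasmic reticulum or mitochondria. Heat-induced genes are transcribed strongly when heat shock factor (Hsf) trimers bind arrays of short inverted units, called heat shock elements, ahead of their starts. In flies the promoters of several heat-induced genes are kept open before any heat by GAGA factor (Trl), and a paused RNA polymerase II waits just downstream of the start. Several of the small heat shock genes, and Hsp83, are also transcribed without heat, in the female germline or under the hormone ecdysone. The gsb protein belongs to the Pax family, binds DNA through a homeodomain as well as a paired domain, and patterns segments and neural lineages of the embryo.

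The libraries came from chromatin immunoprecipitation (ChIP-seq) of whole embryos aged 0 to 18 h from a transgenic strain with gsb fused to enhanced green fluorescent protein (eGFP). All samples formed 1 group, with 2 biological replicates of 1 technical replicate, and the chromatin had been sonicated to fragments of 200 to 800 bp. The labels describe precipitation with an antibody against GFP, while their antibody field names gsb. They state neither the elements that drive the transgene nor a heat treatment, and they name a possible control experiment that was not used here. The embryos pool many stages and cell types, so enrichment in few cells and weak enrichment in many cannot be told apart.

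The combined list held 2877 peaks on the main arms, the conservative list 2715, the replicate 1 list 1864 and the replicate 2 list 1701. The combined peaks were those that passed the authors' threshold among 139318 candidate regions. The threshold is a global irreproducible discovery rate (IDR) of at most 0.01. The global IDR at a region estimates what share of the regions ranked at least as high are not repeated between 2 sets of reads. Every IDR given below is global. The signal given below is the authors' peak-caller value for a region, on a scale that the labels and files do not name, and it was compared only within a list. The median signal was 112 among combined peaks and 24.0 among all combined candidate regions. Each gene's percentile is the share of the 13945 genes whose strongest promoter region was weaker. Genes without any region counted as weaker. They were 10.2% of genes in the combined list, 13.0% in replicate 1 and 9.52% in replicate 2. The tagged gene gsb had 1 promoter peak in the combined list, with a signal of 87.6, and none in the list of replicate 1 or of replicate 2, where its strongest regions had signals of 52.7 and 51.2.

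The heat-induced gene Hsp27, which encodes a small heat shock protein found in the nucleus, held the strongest promoter peak of the 10 genes. Its combined signal was 485, with 268 in replicate 1 and 221 in replicate 2, all 3 above the 99th percentile of genes at 99.1, 99.2 and 99.1. The peak ranked 113 among the combined peaks, with 3.89% of them stronger. It spanned chr3L:9383800-9384028, a width of 229 bp against the median of 364 bp, and its summit lay 135 bp upstream of the only start of Hsp27, in intergenic sequence. No other gene had a start within 1 kb of that summit. Hsp27 was thus high in both replicates, and its combined list held no other candidate region within 1 kb of the start.

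Promoter sequences of 4 genes and 1 short site are printed because they show where the peaks lay relative to heat shock units. Capitals mark the paired unit GAANNTTC or TTCNNGAA, and the GAGA factor letters GAGAG, on either strand, with N any base. Sequences are from the RefSeq copy of Release 6 (the dm6 assembly) and run 5′ to 3′ on the strand of the gene. The Hsp27 run begins at the paired unit nearest to the summit and ends inside the peak, with the summit at base 204. The Hsp26 run holds the 250 bases before its outermost start, with the summit at base 90. The Hsc70-4 run holds the same stretch of that gene, with the summit at base 93. The Hsp68 run is shown because it had the most units of the 10 genes and no combined candidate region. The Hsp83 site is 30 bases of the leader of its longer transcript, since its combined peak lay between its starts. Its unit, at chr3L:3193148-3193155, lies just past the end of the combined peak and upstream of the inner start. The wider Hsp83 peaks of replicate 1 (chr3L:3192980-3193319) and replicate 2 (chr3L:3192934-3193269) both span this unit. The replicate 1 summit, at base 3193150, lies inside it.
Hsp27, chr3L:9383725-9384024, plus strand, bases -338 to -39 from the start: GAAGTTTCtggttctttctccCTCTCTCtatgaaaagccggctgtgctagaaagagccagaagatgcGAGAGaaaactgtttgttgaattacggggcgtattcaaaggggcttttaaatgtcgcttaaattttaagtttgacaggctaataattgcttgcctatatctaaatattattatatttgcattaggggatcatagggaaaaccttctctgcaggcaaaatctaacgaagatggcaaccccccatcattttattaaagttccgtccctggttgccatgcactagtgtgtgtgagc
Hsp26, chr3L:9377428-9377677, minus strand, bases -250 to -1: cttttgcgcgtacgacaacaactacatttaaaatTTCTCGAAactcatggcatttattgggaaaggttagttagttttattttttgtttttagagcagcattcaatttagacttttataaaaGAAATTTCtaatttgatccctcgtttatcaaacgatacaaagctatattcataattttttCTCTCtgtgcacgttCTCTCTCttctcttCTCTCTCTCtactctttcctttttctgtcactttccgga
Hsc70-4, chr3R:15242437-15242686, plus strand, bases -250 to -1: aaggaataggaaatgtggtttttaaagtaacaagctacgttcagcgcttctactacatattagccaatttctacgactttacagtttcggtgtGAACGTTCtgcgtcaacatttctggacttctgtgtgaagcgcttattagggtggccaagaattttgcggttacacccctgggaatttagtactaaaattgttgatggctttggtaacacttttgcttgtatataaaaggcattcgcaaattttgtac
Hsp68, chr3R:24057311-24057560, minus strand, bases -250 to -1: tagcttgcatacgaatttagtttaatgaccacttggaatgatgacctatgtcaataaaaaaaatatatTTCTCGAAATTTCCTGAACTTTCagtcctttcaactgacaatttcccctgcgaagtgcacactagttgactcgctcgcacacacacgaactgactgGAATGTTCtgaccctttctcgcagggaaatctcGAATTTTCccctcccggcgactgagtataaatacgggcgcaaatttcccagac
Hsp83, chr3L:3193137-3193166, plus strand: agaagcctctaGAAGTTTCtagagacttcc

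In the combined list, the Hsc70-4 summit lay 4.5 bp from the centre of a paired unit, the Hsp26 summit 36.5 bp and the Hsp83 summit 52.5 bp. The replicate 1 summits were shifted from these, along the chromosome, by -16 bp at Hsc70-4, 0 bp at Hsp26 and 51 bp at Hsp83. The replicate 2 summits were shifted by 0, -29 and 3 bp in that order. The distances and their order therefore hold for the combined summits and not for each replicate. Of all 2877 combined peaks, 0.904% had a unit centred within 10 bp of the summit, 4.80% within 50 bp and 9.59% within 100 bp. At the other 3 genes with a peak the nearest unit was farther off, at 199.5 bp for Hsp27, 258.5 bp for Hsp22 and 279.5 bp for Hsc70-5. Peaks of the chaperone genes therefore lay on both sides of the 100 bp limit, 3 within it and 3 beyond it. Hsp68 had 6 units in the 250 bases before its start, 4 of them overlapping in 1 run, and no combined candidate region within 1 kb.

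The constitutive gene Hsp83, the only cytosolic Hsp90 gene of the fly, had a combined signal of 227, with 105 in replicate 1 and 120 in replicate 2. Its percentiles were 96.6 in the combined list, 96.0 in replicate 1 and 97.0 in replicate 2. The combined peak spanned chr3L:3193055-3193146, only 92 bp wide, in the 5′ UTR exon of the longer transcript. Its summit was 117 bp upstream of the inner start and 130 bp downstream of the outer one, so the peak preceded only 1 of the 2 annotated starts. The gene CG14965, on the opposite strand, had a start 608 bp from the summit. A stronger combined candidate region, with a signal of 361, lay between 1 and 2 kb from the Hsp83 starts, outside the limit used here.

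Hsc70-4, the main cytosolic Hsc70, which folds proteins and uncoats clathrin vesicles, had a combined signal of 105, with 50.3 in replicate 1 and 48.3 in replicate 2. Its percentiles were 90.4, 89.3 and 88.7 in that order. The region at chr3R:15242347-15242710 passed the threshold in the combined list, with a global IDR of 0.00213, and in neither replicate's own list, where the IDR was 0.0107 in replicate 1 and 0.0162 in replicate 2. The summit lay 158 bp upstream of the outermost of 6 starts, and the divergent gene tefu, a DNA damage kinase, had a start 293 bp away. The evidence at Hsc70-4 therefore rested on the joint lists, although both replicates had a candidate region there.

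Hsc70-5, the Hsp70 of the mitochondrial matrix, was the strongest of the constitutive genes, with a combined signal of 267, 148 in replicate 1 and 115 in replicate 2. It stood at percentiles of 97.4, 97.7 and 96.7. The peak at chr2R:14256136-14256228 was 93 bp wide, with the summit 30 bp upstream of the outermost start. The divergent gene CG8531 had a start 271 bp from the summit, so the peak belongs to both promoters under the rule used here. A second region, with a signal of 58.6, passed only in the conservative list.

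Hsc70-3, the Hsp70 of the endoplasmic reticulum (BiP), and Hsp60A, the mitochondrial chaperonin, had no peak in any of the 4 lists. The strongest region of Hsc70-3 had a combined signal of 41.2, with 32.7 in replicate 1 and 31.5 in replicate 2, and that of Hsp60A had 46.3, 33.5 and 20.2. The strongest Hsp60A region in replicate 2 was another one, in the coding sequence, and so was that of Hsc70-3, in an intron. Both combined signals were close to 46.0, the median over genes with any promoter region, which was 24.9 in replicate 1 and 25.9 in replicate 2. The percentiles of Hsc70-3 were 45.3 in the combined list, 75.5 in replicate 1 and 70.7 in replicate 2, and those of Hsp60A were 55.6, 76.5 and 35.5. Both genes thus ranked higher in replicate 1 than in the combined list, and the replicates differed for Hsp60A. The nearest combined peak was 11497 bp from a start of Hsc70-3 and 171666 bp from a start of Hsp60A. The mitochondrial folding genes thus differed among themselves, since the partner of Hsp60A, the co-chaperonin gene CG11267 (Hsp10), had a combined signal of 216, with 115 in replicate 1 and 118 in replicate 2.

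**Figure D1:**
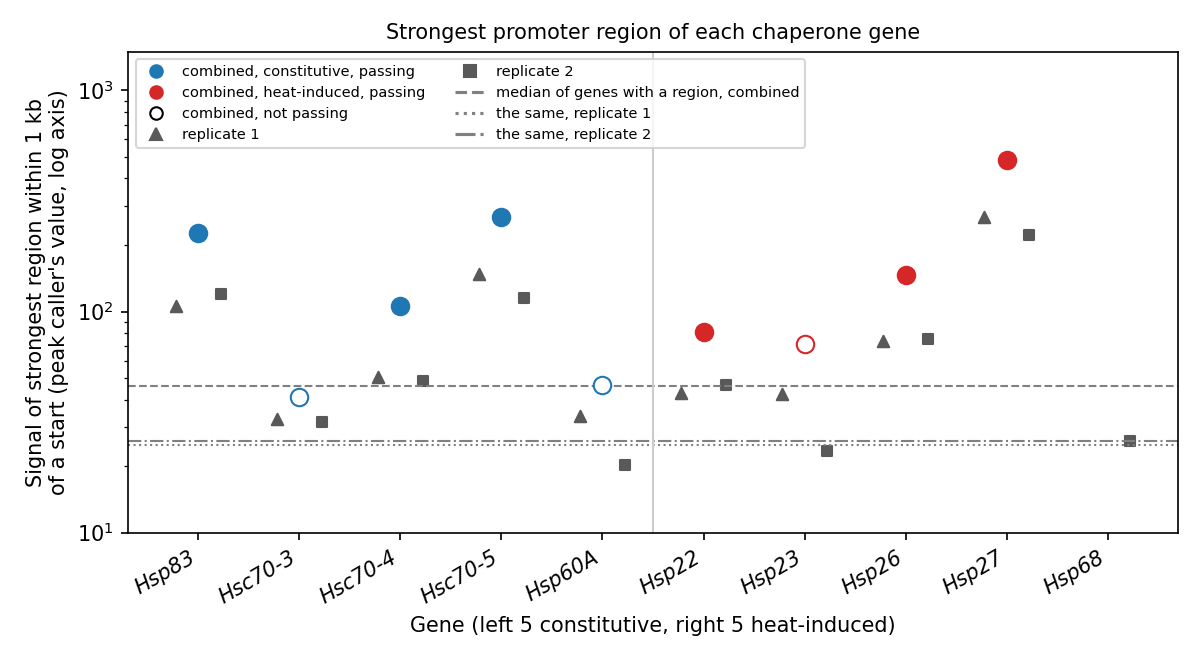
Signal of the strongest region within 1 kb of a start (log axis, peak caller's value) for 5 constitutive genes on the left and 5 heat-induced genes on the right, in the combined list (circles, filled where the region passed the threshold), replicate 1 (triangles) and replicate 2 (squares). Hsp27 is highest at 485, and Hsp68 has a value in replicate 2 only, 26.0; the lines are each list's median over genes with a region, 46.0 for combined (dashed), 24.9 for replicate 1 (dotted) and 25.9 for replicate 2 (dash-dotted).

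Among the heat-induced genes, Hsp26, which encodes a cytosolic small heat shock protein, came after Hsp27. Its combined signal was 146, with 73.4 in replicate 1 and 75.3 in replicate 2, and its percentiles were 93.7, 93.2 and 94.1. The peak at chr3L:9377406-9377769 passed in all 4 lists, and its summit lay 161 bp upstream of the outermost of 2 starts. The antisense RNA gene asRNA:CR43481 had a start 572 bp from it. A second region in the Hsp26 coding sequence, with a combined signal of 75.8 and an IDR of 0.0153, did not pass.

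Hsp22 encodes a small heat shock protein of the mitochondrial matrix and Hsp23 a cytosolic one. Of the 10 genes, Hsp22 was the nearest to the threshold from inside in the combined list, and Hsp23 the nearest from outside. The Hsp22 region had a combined signal of 80.9 and an IDR of 0.00373, with 42.6 in replicate 1 and 46.5 in replicate 2. It passed in replicate 2, with an IDR of 0.00437, and not in replicate 1, with 0.134. The Hsp23 region had a combined signal of 71.0 and an IDR of 0.0183, with 42.4 in replicate 1 and 23.3 in replicate 2, where the IDR was 0.0139 and 0.636. In replicate 1 the signals of the 2 genes were nearly equal, and the IDR was lower at Hsp23. In replicate 2 Hsp22 had the higher signal and the lower IDR. In the conservative list the IDR was 0.00347 at Hsp22 and 0.141 at Hsp23, so Hsp23 stood farther from the threshold there.

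The Hsp22 region, chr3L:9373372-9373735, also differed in position. Its summit lay 443 bp upstream of the start of the short Hsp22 transcript and 623 bp downstream of the start of the long one, in sequence annotated both as Hsp22 5′ UTR and as CG4456 3′ UTR. The long transcript shares its start with a transcript of CG4456, so this peak counts for both genes. Hsp23 had its strongest region 406 bp downstream of its start, in the coding sequence, at chr3L:9382106-9382469. The GC content of the 200 bases around that summit was 56.5%, the highest of the 9 genes with a region, and 28.0% at the Hsp22 summit. The median GC content was 38.0% at all combined peaks and 48.0% at non-passing candidates, and its part in these signals was not tested.

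Hsp68, a heat-induced gene of the Hsp70 family, had no candidate region within 1 kb of its start in the combined list, the conservative list or replicate 1. Only 10.2% of protein-coding genes had none in the combined list and 13.0% in replicate 1. In replicate 2 it had a region with a signal of 26.0 in the coding sequence, 480 bp from the start, at percentile 54.8 and an IDR of 0.184. The nearest combined candidate region was 1205 bp away and the nearest combined peak 16167 bp away.

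**Figure D2:**
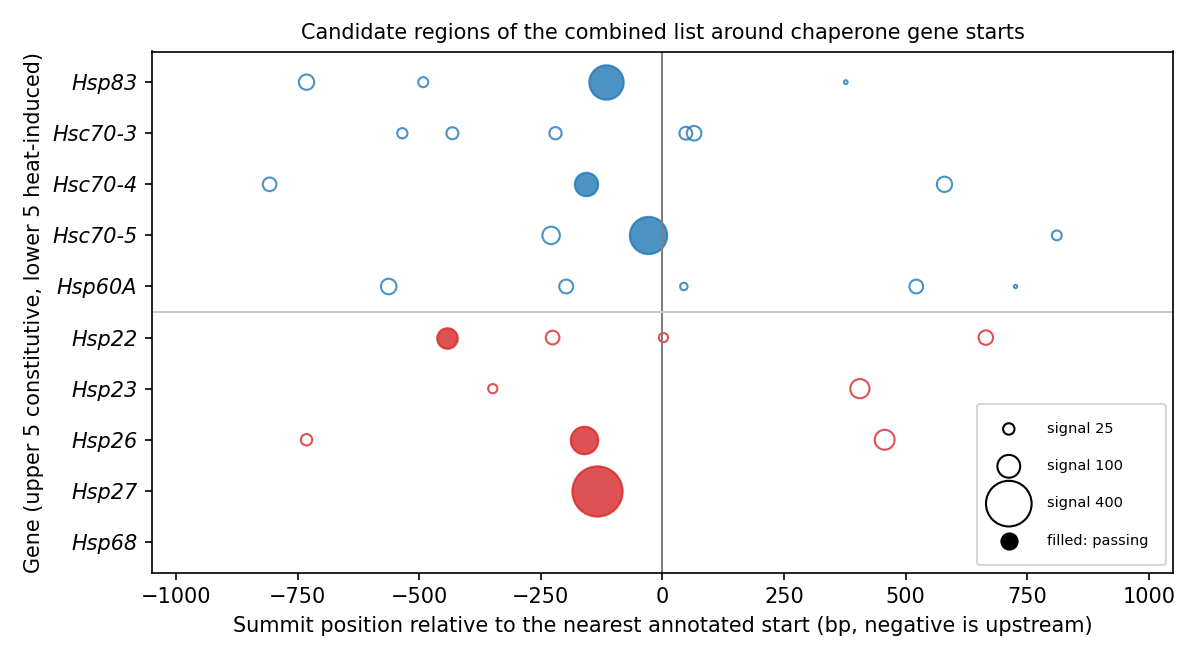
Summits of all combined candidate regions within 1 kb of a start, by distance in bp from the nearest start (negative is upstream), for constitutive genes above and heat-induced genes below. Circle area follows signal and filled circles passed the threshold; all 6 filled circles lie upstream of the nearest start, between -443 bp at Hsp22 and -30 bp at Hsc70-5.

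Counted by class, 3 of 5 constitutive and 3 of 5 heat-induced genes had a promoter peak in the combined list. The conservative list gave the same 6 genes, 3 and 3, against a background of 13.2%. Replicate 1 gave 4 genes, 2 constitutive and 2 heat-induced, against 9.89% of all genes, and replicate 2 gave 5 genes, 2 constitutive and 3 heat-induced, against 9.46%. Hsp83, Hsc70-5, Hsp26 and Hsp27 passed in all 4 lists, and the counts of the classes differed by at most 1 gene in any list. The median signal was 105 over the 5 constitutive genes and 113 over the 4 heat-induced genes with a region. With Hsp68 counted as 0, the median percentile was 90.4 for the constitutive and 86.5 for the heat-induced genes. This order is the opposite one, but both the measure and the treatment of Hsp68 differ between these medians. The constitutive genes had 16 starts and the heat-induced genes 7, so the constitutive genes offered more sequence in which a region could be found. All genes had a median of 1 start and a mean of 1.41.

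In the order of combined signal, Hsp27 led, followed by Hsc70-5, Hsp83, Hsp26, Hsc70-4, Hsp22, Hsp23, Hsp60A and Hsc70-3. Hsp27 was first in both replicates and Hsp26 was behind Hsc70-5 and Hsp83 in both. Hsc70-5 and Hsp83 changed places between the replicates, so their order was not fixed by 2 samples. Hsc70-4 and Hsp22 followed in both, at percentiles of 88.7 and 88.0 in replicate 2 and of 89.3 and 86.2 in replicate 1, so they stood close together in both lists. Below them the order changed between replicates, since Hsc70-3 and Hsp68 stood above Hsp23 and Hsp60A in replicate 2. The 6 genes with a combined peak were therefore the upper 6 in both replicates' ranked lists, including the genes that did not pass there. In replicate 1 the signal of Hsp22 was 42.6 and that of Hsp23 42.4, so the last place was narrow. The combined list was made from the same 2 replicates, so this agreement is not independent support.

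**Figure D3:**
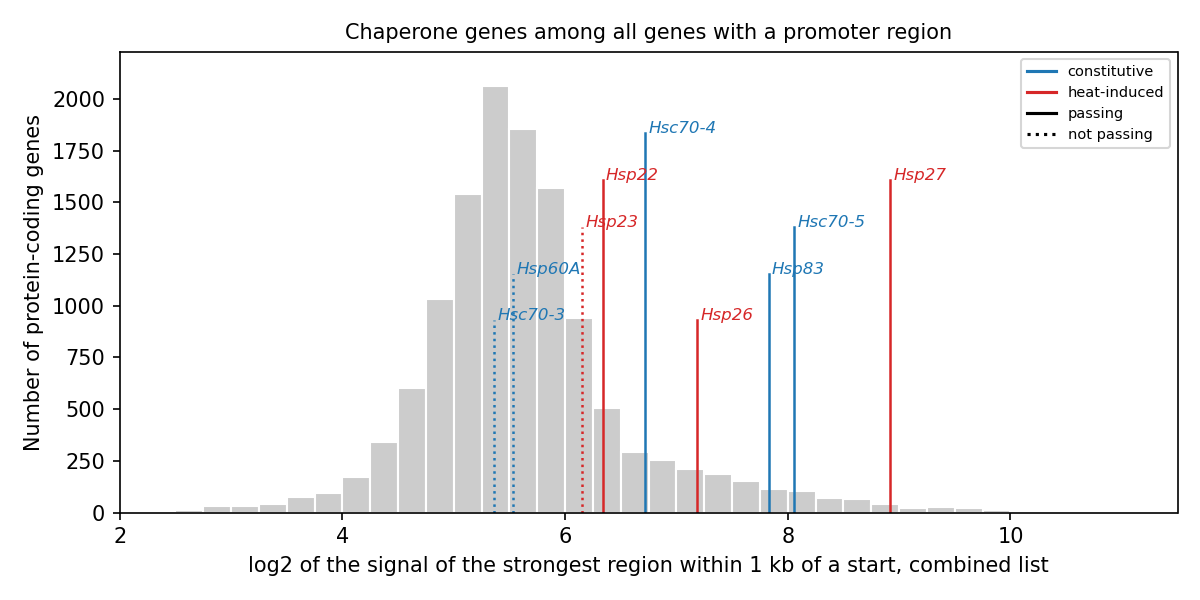
Number of protein-coding genes (vertical axis) by log2 of the combined signal of their strongest promoter region (horizontal axis), with the 9 chaperone genes that had a region marked by lines, blue for constitutive and red for heat-induced, dotted where the region did not pass. Hsc70-3 and Hsp60A sit in the bulk of the distribution, and Hsp27 in its upper tail at percentile 99.1.

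The heat-induced genes Hsp22, Hsp23, Hsp26 and Hsp27 share the cluster of small heat shock genes at cytological position 67B, which runs over 14184 bp at chr3L:9371511-9385694. In the combined list this stretch held 17 candidate regions, of which 3 passed (17.6%, against 2.07% of all main-arm candidates). The 14 others had a median signal of 34.7. Replicate 1 had 20 candidate regions with 2 passing (10%, against 1.51% of all), and replicate 2 had 23 with 3 passing (13.0%, against 1.39%). Within the cluster the peaks were at Hsp22, Hsp26 and Hsp27, and these members are neighbours on 1 chromosome stretch and not independent. Because the genes were chosen on their peaks, a high share in the stretch that holds them was given in advance. The shares of all main-arm candidates also cover regions far from any start, so the shares are a description only.

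**Figure D4:**
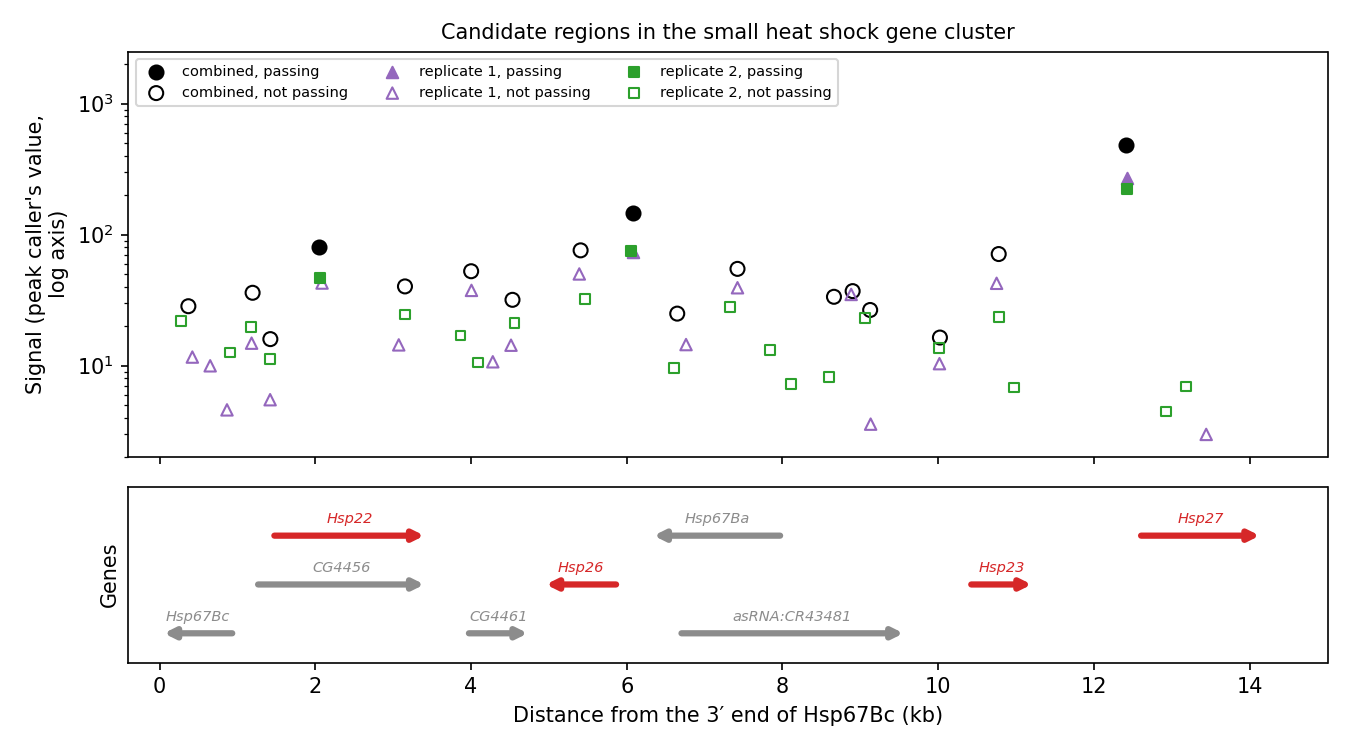
Signal (log axis) of every candidate region in the 67B cluster by distance in kb from the 3′ end of Hsp67Bc, for the combined list, replicate 1 and replicate 2, filled where the region passed; arrows below show the genes in their direction of transcription, Hsp22, Hsp23, Hsp26 and Hsp27 in red. The 3 filled circles lie at Hsp22 (80.9), Hsp26 (146) and Hsp27 (485), and the 14 open ones have a median of 34.7.

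Of 8 other small heat shock genes listed, 2 had a promoter peak in the combined list, against 13.8% of all genes. These were CG4456 through the peak it shares with Hsp22, and CG14207 with a combined signal of 71.9, which passed in no other list. In the cluster, Hsp67Ba had a signal of 54.7, CG4461 52.5 and Hsp67Bc 35.9, none passing. Outside it, CG7409 had 70.7, l(2)efl 54.0 and CG13133 31.7, also not passing. None of the 6 heat-induced Hsp70 copies had a peak, and only Hsp70Ab (28.3) and Hsp70Ba (21.5) had a combined candidate region. Hsp70Aa, Hsp70Bb, Hsp70Bbb and Hsp70Bc had none. These copies are nearly identical, and the sources used here do not say how reads that map to several places were treated, so their lack of regions cannot be told apart from a loss of such reads.

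Across the wider chaperone system, 12 of 62 matched genes had a promoter peak in the combined list (19.4%, against 13.8% of all genes). The number was 10 (16.1%) in the conservative list and in each replicate's list. The shares of all genes there were 13.2% in the conservative list, 9.89% in replicate 1 and 9.46% in replicate 2. Within 500 bp of a start it was 6 of 62 (9.68%), below the 11.1% of all genes at that distance. The other cytosolic and organelle Hsp70, Hsp110 and Hsp90 genes had none, 0 of 4 and 0 of 2. Among the Hsp60 and Hsp10 genes 2 of 5 had one, CG11267 and CG9920 (81.8), and CG9920 passed in no other list. Among the 8 subunits of the cytosolic chaperonin only CCT8 had one (134), and its summit was 15 bp from a start of CG30349 and 513 bp from that of CCT8.

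Among 12 matched J-domain genes, whose products hand clients to Hsp70, mrj had a combined signal of 554, with 263 in replicate 1 and 330 in replicate 2, and CG5001 had 171. Of 11 cochaperone and exchange factor genes, 3 had a peak. Dpit47, an Hsp90 cochaperone, had the highest signal of all listed genes, 1004 combined, with 589 in replicate 1 and 411 in replicate 2, but its summit lay 939 bp from its own start and 787 bp from a start of Adf1. The BAG-domain gene stv had 179 and Sgt 150. Among the 6 regulator genes, Trl, which encodes GAGA factor, had 166, and Nelf-E, a subunit of the factor that pauses RNA polymerase II, had 213, with a start of RpL14 55 bp from the summit. Hsf itself had a signal of 29.7 and no peak. The heat-induced RNA gene lncRNA:Hsromega, named after its values were seen, had a region with a signal of 97.2 and an IDR of 0.00375 that is not in the thresholded list. It was 1 of 78 main-arm candidates at or below the IDR threshold that the combined list leaves out, and none of the strongest regions of the 10 chaperone genes was among them.

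Short sequences known from these promoters were counted in the window from 250 bases before to 50 bases from the outermost start on, on both strands. At least 1 paired heat shock unit, GAANNTTC or TTCNNGAA, was present in 2 constitutive genes (Hsc70-3 and Hsc70-4) and 3 heat-induced genes (Hsp23, Hsp26 and Hsp68), against 15.9% of all 13945 promoters. The letters GAGAG were present in 1 constitutive and 3 heat-induced genes, against 29.7% of promoters, and TATAAA in 4 and 5, against 45.8%. With the windows of all annotated starts, a paired unit was present in 4 constitutive and 4 heat-induced genes, against 19.9% of all genes. The genes added were Hsp83, Hsp60A and Hsp22, and the start of the short Hsp22 transcript, which the peak precedes, had 2 units and 5 matches to GAGAG. Those letters were then present in 3 and 3 genes, against 36.3%, and TATAAA in all 10, against 51.2%. The windows around the 9 summits include the non-passing regions of Hsc70-3, Hsp60A and Hsp23, so they mix peaks with other candidates. Among them, GAGAG was present in 1 window, against 25.5% of combined peaks and 23.5% of non-passing candidates. TATAAA was present in 4, that of Hsp60A included, against 30.4% and 12.8%. Hsp27 and Hsc70-5 had no paired unit in the window of any start, and the one nearest to the Hsp27 summit was centred at -334.5 bp from the start. The strict letters miss degenerate units, so a gene without a match may still carry elements.

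Letters of the kind read by homeodomains and paired domains were counted in the same way, and their shares lay near those of all promoters and peaks. The homeodomain letters TAATTA occurred in 2 of 10 promoter windows, those of Hsp83 and Hsc70-3, against 20.4% of promoters. Around the summits they occurred in 1 of 9 windows of 200 bases, that of Hsp22, against 13.4% of all combined peaks. The Hsp22 window held 5 matches, and the number of matches per window was not compared with that of other peaks. The paired-domain core GTCACGC occurred in none of the 10 promoter windows and none of the 9 summit windows, against 1.51% of promoters and 0.834% of peaks. The letters ACAGTG, chosen because they were the most enriched at summits in earlier results of these data, occurred in 1 of 9 summit windows, that of Hsp60A, which had no peak, against 19.8% of peaks. A paired unit occurred in 3 of 9 summit windows, those of the peaks at Hsp83, Hsc70-4 and Hsp26. The shares over all regions were 9.28% of combined peaks and 8.79% of non-passing candidates. In these windows, peaks in general held paired units about as often as other candidate regions did.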

How the data were processed

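Per the labels, the data are ChIP-seq peaks on dm6 from 2 biological replicates of 1 group. The authors deposited ranked lists of candidate regions and lists past an IDR threshold, per replicate and for both replicates. Column 7 of the deposited files is the peak caller's signal, and column 12 of the deposited ranked lists was read as the −log10 of the global IDR. Per the deposited notes the ranked lists derive from the replicates' alignments and 1 further file, and the thresholded lists from 2 further files, of kinds not stated. No source used here names the aligner or the peak caller. Read depth is unknown, so no counting interval is given.

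Genes and starts came from Ensembl release 115, and sequences from RefSeq's Release 6 assembly, whose arms held all regions. Promoter windows were cut around the outermost Ensembl start. A combined and a replicate summit within 150 bp were taken as 1 region. Both searches were tested on simulated data. Python 3.11.15, numpy 2.4.6 and pandas 2.3.3 were used. No significance test was run on the chaperone genes. The members and lists were chosen with earlier results of these data known. Named were all 10 members, listed genes with a combined promoter peak, every Hsp70 copy and small heat shock gene, other genes with a start within 1 kb of a member's peak, and gsb. Of 63 listed genes, 62 matched the annotation. The alternatives were the other lists, stricter thresholds, other windows, peak overlap, the outermost start alone and summit windows for motifs.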

Additional observations from a re-analysis of the deposited data

How the results depend on the processing

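The number of chaperone genes with a promoter peak was 6 in the conservative list, within 500 bp, within 2 kb, by any overlapping base and with outermost starts only, each time the same 6 genes. The share of all protein-coding genes under these settings was 13.2%, 11.1%, 18.1%, 14.6% and 12.2% in that order. The number was 4 at an IDR of at most 0.001 (7.21% of all genes) and at or above the median signal (8.63%), and ranged between 4 and 5 with 1 replicate's list alone. The 4 genes under each of these stricter settings were Hsp83, Hsc70-5, Hsp26 and Hsp27. Without the peak shared with CG4456, an alternative chosen after seeing the data, it was 5. The count over all protein-coding genes dropped to 1006 at an IDR of at most 0.001 and to 1203 at or above the median signal, against 1931, and ranged between 1319 and 1379 with 1 replicate's list alone. The wider chaperone list dropped to 6 of 62 genes within 500 bp, against 12, a share of 9.68% that lay below the 11.1% of all genes, whereas it lay above the share of all genes under each other setting. The median signal of the members' strongest regions was 105 and became 93.2 within 2 kb, where Hsp68 gained a region, and between 47.4 and 50.3 with 1 replicate's list alone, each on that list's own values. The letters TATCGATA were in 1 of 10 promoter windows, against 9.36% of all promoters, and GGTCACAC in 1, against 7.70%. Neither was in any of the 9 summit windows, against 2.57% and 1.53% of combined peaks. TTCNNGAA was in 4 promoter windows, against 7.69%, and in 1 summit window, against 4.62%. GAANNTTC was in 4 promoter windows, against 9.37%, and in 3 summit windows, against 4.87%. Windows of all starts were added after seeing the data. No paired analysis was possible because the labels give 1 group only. With 2 replicates and no control used here, the spread of a signal rests on 2 values.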
